A study of Mus musculus with 6 samples.

Results

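The genes described here are the unfolded protein and integrated stress response genes of tumour-associated macrophages, 32 genes chosen by name from the 35275 genes of the deposited table. RNA was sequenced from tumour macrophages, gated as CD11b+ F4/80+ and as Ly6G- Ly6C-, of female MMTV-PyMT mice, in which a viral oncogene under a mammary promoter drives breast tumours. The mice, 1 per library, were 65 days old and of the FVB/NJ background. Atg5, an autophagy gene, was flanked by loxP sites in all of them. The group labelled Atg5 WT (3 libraries, here WT-labelled) had no Cre, and the group labelled Atg5 KO (3 libraries, here KO-labelled) also had LysMcre, which is expressed across myeloid cells and sits in the Lyz2 gene. The labels do not say how completely Atg5 was deleted in the sorted cells. The recovered reads numbered from 18770262 to 21173301 per library.

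The unfolded protein response corrects a shortfall of folding capacity in the endoplasmic reticulum (ER). It has 3 membrane sensors: PERK (gene Eif2ak3), IRE1α (Ern1) and ATF6. PERK also feeds the integrated stress response, in which phosphorylation of eIF2α slows translation in general while the transcription factor ATF4 is translated more. IRE1α splices Xbp1 mRNA to make an active transcription factor, and ATF6 is cut in the Golgi to release another. ATF6 and XBP1 raise ER chaperones and degradation factors, and ATF4 raises amino acid synthesis genes and the transcription factor CHOP (gene Ddit3). Much of this regulation is by translation, phosphorylation, splicing or cleavage, which a gene-level value does not show.

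Values are FPKM, which scale reads by gene length and library size, so levels may be compared between genes. Differences are of mean log2(FPKM + 1), KO-labelled less WT-labelled, tested with limma-trend over the 12332 genes whose mean FPKM was 1 or more, and adjusted p-values are Benjamini-Hochberg values over all of them. Gene-level Atg5 went against the label, with a mean FPKM of 5.18 ± 0.0875 (SD, n = 3) in the WT-labelled libraries and 16.0 ± 1.77 in the KO-labelled ones (limma-trend adjusted p = 0.103). Lyz2 went with the label, at 4446 ± 2267 against 12.1 ± 3.85 (limma-trend adjusted p = 0.0306). The gene-level Atg5 value covers all exons and checks nothing about a deleted one. Every direction given here follows labels that gene-level Atg5 goes against.

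The libraries held unequal amounts of RNA from other cells. The summed FPKM of 15 mammary epithelium and tumour cell markers, none of them at 0 in every library, was 3335, 6542 and 661 in the WT-labelled libraries and 2353, 796 and 539 in the KO-labelled ones. Their mean log2(FPKM + 1), the tumour-cell score, was 5.98 ± 1.52 against 4.64 ± 0.991 (exact two-sided permutation p = 0.3, smallest possible 0.1). The 15 macrophage markers, led by C1qa and C1qb, were lowest in WT-labelled library 2, with a summed FPKM of 3398 there and between 8219 and 12668 in the others. F4/80 itself (listed as Emr1), named here because the sort used it, stood at 49.97 in that library and between 143 and 258 in the others. Of the 15 macrophage markers, 14 had a higher and 1 a lower mean in the KO-labelled libraries, with a median log2 difference of 0.81. The groups of 3 did not overlap, all higher, beside 9.2% of all genes on that side. Their mean log2 level was 7.58 ± 0.888 against 8.30 ± 0.171 (exact two-sided permutation p = 0.3). Markers of stromal cells were lower in the KO-labelled libraries. All 10 fibroblast and pericyte markers had a lower mean there, 9 of them without overlap. On that side 5 of 7 endothelial and 4 of 5 mast cell markers tested also did not overlap, beside 9.41% of all genes. The mean log2 level of the fibroblast and pericyte markers was 4.72 ± 1.10 against 3.02 ± 0.601. The same level was 2.88 ± 0.572 against 1.68 ± 0.408 for 7 endothelial markers and 2.62 ± 0.804 against 1.27 ± 0.353 for 6 mast cell markers (exact two-sided permutation p = 0.1 for each of these 3 lists, the smallest possible). For T and NK cells, neutrophils and dendritic cells the exact permutation p was 0.3, 0.5 and 0.6. The part of these cells in the stress gene values was not tested. In bulk RNA, fewer cells of a type and less RNA per cell cannot be told apart. WT-labelled library 2, highest in tumour cell and lowest in macrophage markers, stands apart, and counts are also given without it.

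Across the stress response genes, most means were lower in the KO-labelled libraries, in most cases by small amounts, and none passed the test. Of the 32 members, 31 had a mean FPKM of at least 1 and were tested. The lower mean was in the KO-labelled libraries for 27 of these 31, or 87.1%, against 62.8% of all genes tested. Under median-ratio scaling these shares were 77.4% and 51.8%, and under quantile normalization 80.6% and 45.8%. Quantile normalization moved the median of all genes by 0.12 on the log2 scale. The median log2 difference of the members was -0.16, and that of all genes tested was -0.09. Under median-ratio scaling these medians were -0.07 and -0.01, and without WT-labelled library 3 they were -0.14 and -0.15. limma-trend called 0 members (smallest adjusted p = 0.492), against 0.00811% of all genes called lower and 0% called higher. limma-voom on the recovered reads also called 0 members, with a smallest adjusted p of 0.518. At an unadjusted p under 0.05 there were 3 members, Atf4, Sesn2 and Hyou1, all with the lower mean under the Atg5 KO label (limma-trend, each adjusted p = 0.492). That is 9.68% of members tested, beside 5.17% of all genes on the lower side and 4.84% on the higher side.

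Groups that did not overlap were found for 5 members, all lower in the KO-labelled libraries: Atf4, Ddit3, Sesn2, Hyou1 and Pdia4. These are 16.1% of the members tested, beside 9.41% of all genes on the lower side, and there were 0 members on the higher side, beside 9.2% of all genes. Under median-ratio scaling Atf4, Hyou1 and Pdia4 overlapped and 5 members did not. Ddit3, Sesn2, Syvn1 and Shmt2 were lower, beside 8.76% of all genes, and Eif2ak3 was higher, beside 9.83% of all genes. Under quantile normalization 9 did not overlap, all lower, beside 7.6% of all genes. The count also rested on which libraries were used. It was 14 of 31 without WT-labelled library 2, where 12.8% of all genes did not overlap on the lower side. Without WT-labelled library 3 it was 13, beside 38.7% of all genes. The counts were 11 without KO-labelled library 1 (20.4% of all genes) and 9 without KO-labelled library 2 (14.9%). They were 6 without WT-labelled library 1 (10.4%) and 6 without KO-labelled library 3 (10.2%). Leaving out a library cannot make separate groups overlap, so these counts could only stay or rise. For the same reason Ddit3, Pdia4, Sesn2, Hyou1 and Atf4 had to be among the genes without overlap in each of these 6 sets. The members at an unadjusted p under 0.05 numbered 9 without WT-labelled library 3, all with the lower mean in the KO-labelled libraries, where 23% of all genes passed on that side (limma-trend, smallest adjusted p of a member 0.128). They numbered between 0 and 2 without any other library.

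**Figure D1:**
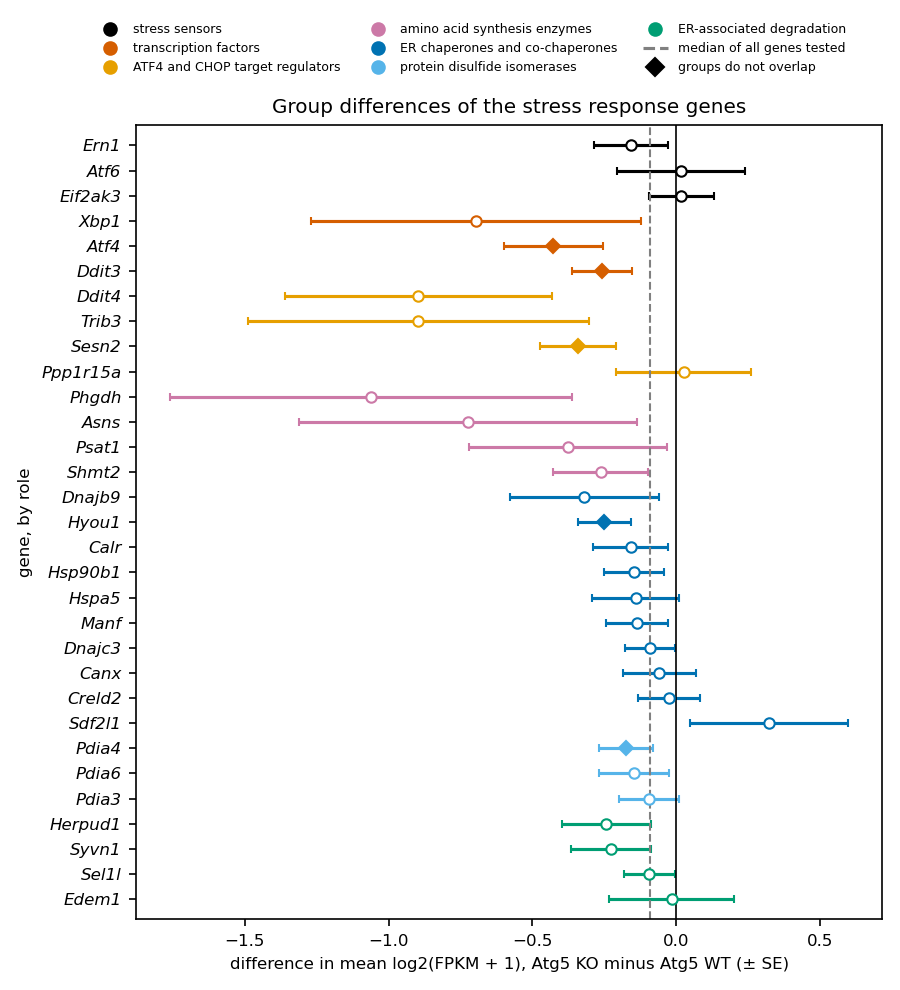
Difference in mean log2(FPKM + 1) between the KO-labelled and the WT-labelled libraries for the 31 members tested, one row per gene, coloured by role; bars are the SE of the limma-trend fit and filled diamonds mark the 5 genes whose groups did not overlap. Of the 31 points, 27 lie below 0, the dashed line is the all-gene median of -0.09, and Phgdh, Asns, Xbp1, Trib3 and Ddit4 have both the largest differences and the widest bars.

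The sensors were among the less abundant members, and none passed the test. Eif2ak3 (chromosome 6, 70844515 to 70905245, mm10), the eIF2α kinase PERK, had an FPKM of 10.7, 11.8 and 10.2 in the WT-labelled libraries and 12.3, 10.4 and 10.5 in the KO-labelled ones. Its groups overlapped, and the log2 difference was 0.02 (SE 0.11, limma-trend adjusted p = 0.942). Ern1 (chromosome 11), the kinase and endonuclease IRE1α, had 11.2, 9.73 and 12.0 against 8.68, 10.9 and 9.63, giving the WT-labelled libraries first. Its log2 difference was -0.16 (SE 0.13, limma-trend adjusted p = 0.574), and the groups overlapped. With the tumour-cell score as a term in the fit the difference was -0.27 (SE 0.11, limma-trend adjusted p = 0.515). Atf6 (chromosome 1), the cleaved transcription factor, stood at 17.4, 12.0 and 21.4 against 14.8, 19.3 and 16.3. WT-labelled library 2 was its lowest library and library 3 its highest, so the spread within that group, 0.78 on the log2 scale, exceeded the group difference of 0.02 (SE 0.22, limma-trend adjusted p = 0.975). In order of mean level in the WT-labelled libraries the sensors ranked 25, 26 and 27 of the 32 members, for Atf6, Ern1 and Eif2ak3. Among all genes tested, 67.8%, 53.7% and 55.4% had a lower mean FPKM than Atf6, Ern1 and Eif2ak3.

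The transcription factors differed in how they varied. Atf4 (chromosome 15, 80255184 to 80257540), the effector of the integrated stress response, had an FPKM of 183, 186 and 183 in the WT-labelled libraries and 137, 170.3 and 109 in the KO-labelled ones. The WT-labelled libraries lay within 0.03 of each other on the log2 scale, a narrower range than in all but 0.616% of genes tested, and their tumour-cell scores ran from 4.31 to 7.29. The KO-labelled ones spread over 0.64, with library 2 nearest the other group and library 3 lowest, and a smaller range was found in 80.5% of genes. The mean ratio of KO-labelled to WT-labelled libraries was 0.754, and the log2 difference was -0.43 (SE 0.17, limma-trend unadjusted p = 0.0490, adjusted p = 0.492). With the tumour-cell score as a term in the fit it was -0.38 (SE 0.20, adjusted p = 0.535).

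Ddit3 (chromosome 10, 127290774 to 127296288), which encodes the pro-apoptotic factor CHOP, had 23.4, 23.0 and 19.6 against 19.0, 17.3 and 18.4. All KO-labelled libraries were lower, by a narrow margin from the lowest of the other group, and the log2 difference was -0.26 (SE 0.11, limma-trend adjusted p = 0.492). With the tumour-cell score as a term the difference was -0.17 (SE 0.10, limma-trend adjusted p = 0.56). Its span overlaps Mars, a gene on the opposite strand at an FPKM between 11.0 and 16.1, and whether counting used the strand is not given, so reads in the shared part cannot be assigned with certainty. Xbp1 (chromosome 11, 5520659 to 5525893) had 192, 349 and 78.8 against 164, 87.4 and 86.0. Its highest and lowest libraries were both labelled Atg5 WT, 4.43-fold apart, and the log2 difference of -0.70 had an SE of 0.58 (limma-trend adjusted p = 0.574). Spliced and unspliced Xbp1 are not distinguished by gene-level values.

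**Figure D2:**
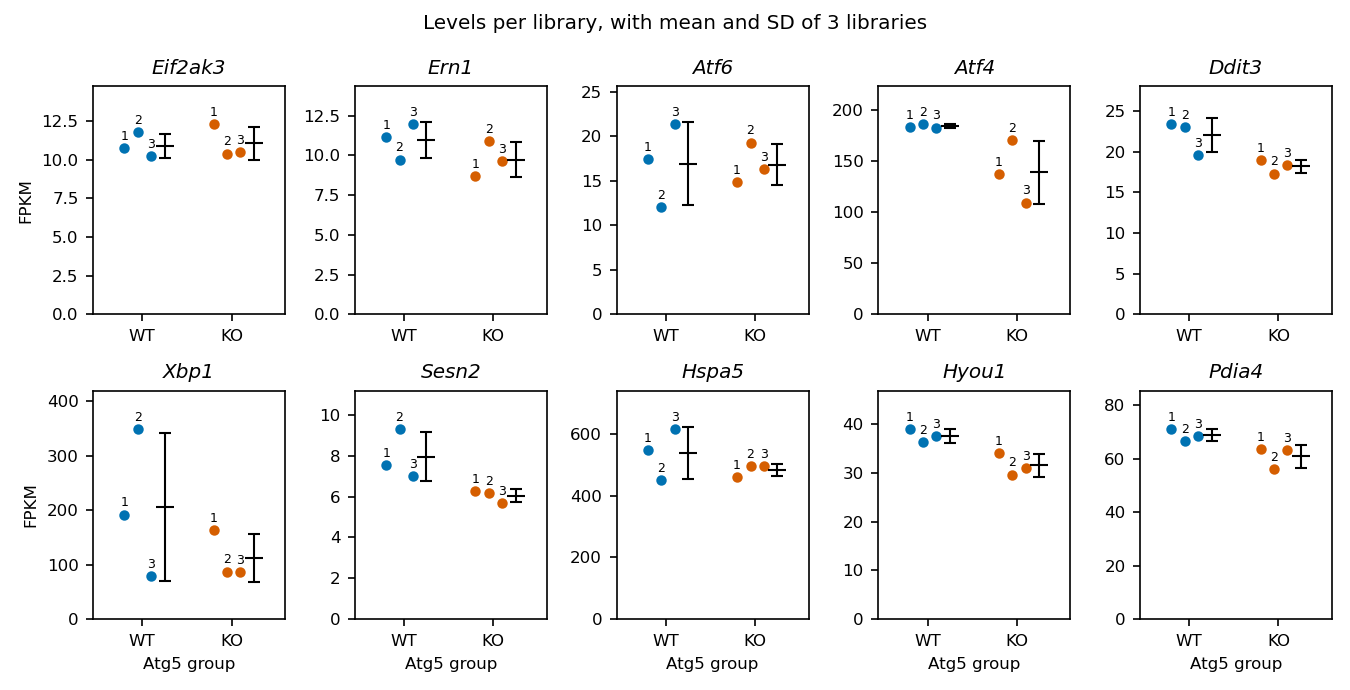
FPKM of the 3 sensors, the 3 transcription factors, Sesn2, Hspa5, Hyou1 and Pdia4 in each of the 6 libraries (numbered points, Atg5 WT in blue and Atg5 KO in orange by label), with the mean and SD of each group in black. The axes start at 0; Atf4 shows 3 tightly placed Atg5 WT points between 183 and 186 above a spread of Atg5 KO points from 109 to 170.3, and Xbp1 shows a wide Atg5 WT group from 78.8 to 349.

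The regulators downstream of ATF4 and CHOP fell into separate patterns. Sesn2 (chromosome 4), a sestrin that restrains mTORC1 when leucine is short, had an FPKM of 7.55, 9.32 and 7.01 in the WT-labelled libraries and 6.27, 6.16 and 5.68 in the KO-labelled ones. The groups did not overlap, and the log2 difference was -0.34 (SE 0.13, limma-trend unadjusted p = 0.0431, adjusted p = 0.492). With the tumour-cell score as a term it was -0.21 (SE 0.11, adjusted p = 0.531). Trib3, a pseudokinase that dampens ATF4 and CHOP, had 5.64, 9.82 and 1.66 against 4.24, 1.52 and 1.24. WT-labelled library 2 was 5.93-fold above library 3 of the same label, and the groups overlapped. Ddit4, an mTORC1 inhibitor also known as REDD1, had 78.6, 133 and 38.6 against 53.8, 34.7 and 32.3, with the same order of libraries within the Atg5 WT label. Its log2 difference was -0.90 (SE 0.46, limma-trend adjusted p = 0.507), and that of Trib3 was -0.90 with an SE of 0.59 (adjusted p = 0.54).

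Ppp1r15a, which encodes the GADD34 subunit that brings a phosphatase to eIF2α, did not share that order. It stood at 139, 97.3 and 161 against 114, 164 and 123, lowest in WT-labelled library 2, and the log2 difference was 0.03 (SE 0.23, limma-trend adjusted p = 0.96). Chac1, an enzyme that degrades glutathione, did not reach the filter. Its recovered reads were 21, 31 and 3 in the WT-labelled libraries and 16, 22 and 2 in the KO-labelled ones. Those counts are too low to show a difference, and library 3 was the lowest library under both labels.

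All 4 enzymes of serine, glycine and asparagine synthesis had a lower mean in the KO-labelled libraries, and 3 of them, Phgdh, Asns and Psat1, had a wide spread within each group. Phgdh, the first enzyme of serine synthesis, had an FPKM of 7.23, 15.9 and 2.42 in the WT-labelled libraries and 6.31, 2.22 and 1.22 in the KO-labelled ones. Asns, asparagine synthetase, had 10.2, 15.8 and 2.80 against 7.05, 3.71 and 3.21. Psat1, the following enzyme of serine synthesis, had 21.4, 31.6 and 12.7 against 20.01, 12.7 and 14.9. In all 3 genes WT-labelled library 2 was the highest library, and the groups overlapped because library 3 of that label lay within the values labelled Atg5 KO for Phgdh and below them for Asns and Psat1. Shmt2, the mitochondrial enzyme that makes glycine from serine, was steadier, at 22.9, 31.5 and 20.8 against 21.4, 20.1 and 19.9. The log2 differences ran from -1.06 (SE 0.70) for Phgdh to -0.26 (SE 0.16) for Shmt2, with limma-trend adjusted p between 0.533 and 0.597.

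These enzymes, Xbp1, Trib3 and Ddit4 followed the tumour cell markers from library to library within each label, except for the order of Psat1 in KO-labelled libraries 2 and 3. Sesn2 and Syvn1 also had the order of the tumour cell markers within each label, over narrower ranges. The mean log2 levels of the fibroblast, endothelial and neutrophil marker lists had that order too, so it is not particular to tumour cells. Among all genes tested WT-labelled library 2 was the highest of its group in 62.1% and library 3 the lowest in 60.6%. The tumour-cell score was 7.29 in WT-labelled library 2 and 4.31 in library 3 of that label, and 5.73 in KO-labelled library 1 and 3.79 in library 3. Phgdh was higher by 2.30 on the log2 scale in the first pair and by 1.72 in the second. Asns was higher by 2.14 and 0.93, Xbp1 by 2.13 and 0.92, and Trib3 by 2.03 and 1.23, in the same order. Over the 31 members tested these 2 within-label differences, which share no library, had a Pearson r of 0.91, beside 0.76 over all genes tested, and genes are not independent replicates. With that tumour-cell score in the fit as a covariate, the log2 difference between the labels was 0.17 for Xbp1, 0.16 for Asns and 0.11 for Psat1, with the sign turned, and it was 0.00 for Trib3 and -0.00 for Phgdh. Ddit4 and Shmt2 kept their sign, at -0.20 and -0.08. For the enzymes, Xbp1, Trib3 and Ddit4 the limma-trend adjusted p was then between 0.5999 and 0.999. Over all members tested, 25 of 31 still had a negative difference in that fit, or 80.6%, beside 43.4% of all genes. Their median was -0.17, beside 0.03 over all genes. Levels in tumour cells, stromal cells, neutrophils and macrophages were not measured apart, so their shares of these transcripts cannot be told apart here.

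**Figure D3:**
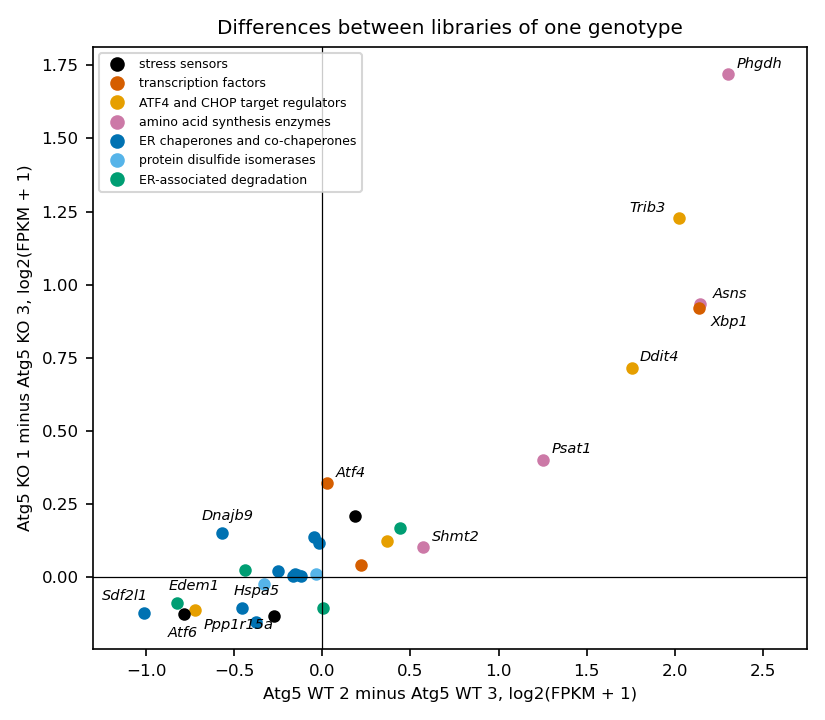
For each of the 31 members tested, the difference in log2(FPKM + 1) between WT-labelled libraries 2 and 3 (x axis) against that between KO-labelled libraries 1 and 3 (y axis), the libraries with the highest and the lowest tumour-cell score in the Atg5 KO group and in the Atg5 WT group; colours give the role. Phgdh, Trib3, Asns, Xbp1, Ddit4 and Psat1 lie at the upper right, and the chaperones lie near 0 or to the left.

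The ER chaperones included the most abundant members, and none of them passed the test. Calr, which encodes the lectin chaperone calreticulin, and Hspa5, which encodes the ER Hsp70 protein BiP, had the highest mean FPKM of all members in the WT-labelled libraries, 598 ± 56.9 and 538 ± 83.7, and 99.0% and 98.9% of genes tested had a lower mean. Hspa5 (chromosome 2, 34771970 to 34776531) stood at 547, 449.6 and 616 in the WT-labelled libraries and 461, 495 and 496 in the KO-labelled ones. Only WT-labelled library 2 lay below the other group, and the log2 difference was -0.14 (SE 0.15, limma-trend adjusted p = 0.641). Without that library the Hspa5 groups did not overlap, with a log2 difference of -0.26 (SE 0.11, limma-trend adjusted p = 0.593). With all 6 libraries and the tumour-cell score as a term in the fit it was -0.30 (SE 0.12, limma-trend adjusted p = 0.515).

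Hyou1 (chromosome 9, 44379490 to 44392369), an ER chaperone of the Hsp110 class that exchanges nucleotide on BiP, was the chaperone whose groups did not overlap. Its FPKM was 39.1, 36.3 and 37.6 against 34.1, 29.7 and 31.0, a mean ratio of 0.838. The log2 difference was -0.25 (SE 0.09, limma-trend unadjusted p = 0.0377, adjusted p = 0.492), and with that tumour-cell score in the fit it was -0.22 (SE 0.10, limma-trend adjusted p = 0.525). Pdia4 (chromosome 6), a protein disulfide isomerase, had 71.2, 66.6 and 68.4 against 63.6, 55.99 and 63.1. Its groups did not overlap either, and its log2 difference was -0.17 (SE 0.09, limma-trend adjusted p = 0.512), and -0.17 also with that score in the fit. Pdia3 and Pdia6, which form and rearrange disulfide bonds in the ER as well, had log2 differences of -0.09 and -0.15 with overlapping groups. Pdia6 overlaps Atp6v1c2 on the opposite strand, at an FPKM between 2.88 and 46.9, so its reads too are uncertain in part.

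The remaining chaperones and co-chaperones were Hsp90b1 (GRP94, the ER Hsp90), Canx (the membrane-bound lectin calnexin), Sdf2l1, Dnajb9 and Dnajc3 (co-chaperones of BiP), Creld2 and the secreted factor Manf. Their log2 differences lay between -0.32 for Dnajb9 and 0.32 for Sdf2l1, with limma-trend adjusted p between 0.548 and 0.924. Canx and Creld2, at -0.06 and -0.02, took the other sign under median-ratio scaling, and Creld2 also under quantile normalization. Sdf2l1, at 101, 57.2 and 117 against 111, 100.4 and 120.5, was the chaperone with the higher mean under the Atg5 KO label, and without WT-labelled library 2 its difference was 0.02. In all 10 chaperones and co-chaperones and all 3 isomerases, WT-labelled library 2, which had the most tumour-cell and the least macrophage RNA, was the lowest library of its group. Among all genes tested that library was the lowest of its group in 30.6% and the highest in 62.1%. Whether the cell mixture accounts for this was not tested.

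**Figure D4:**
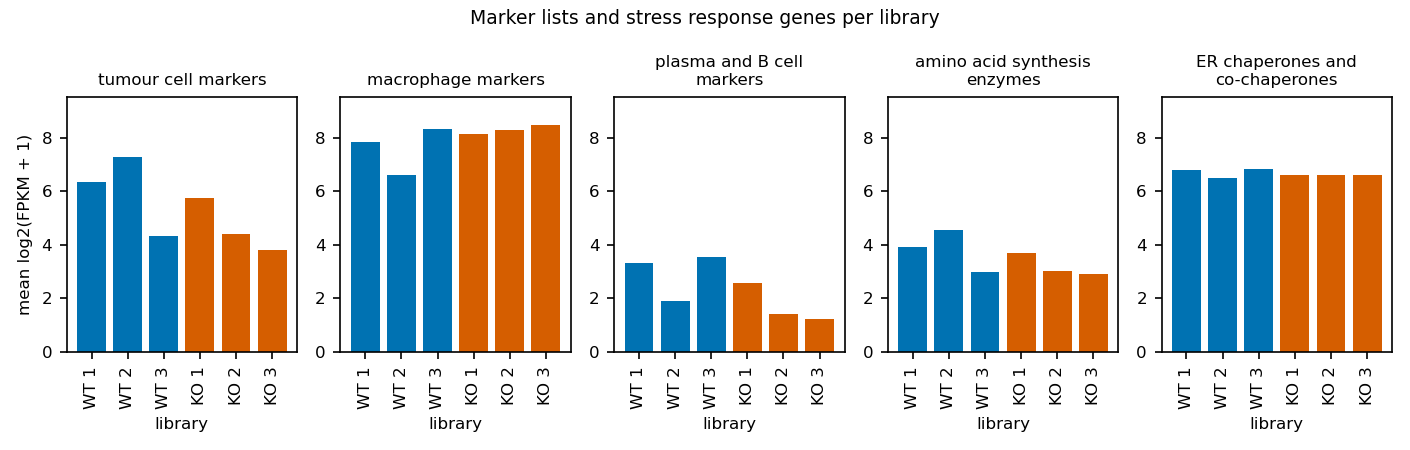
Mean log2(FPKM + 1) per library of the tumour cell, macrophage, and plasma and B cell marker lists and of the amino acid synthesis enzymes and ER chaperones (bars from 0; blue, labelled Atg5 WT; orange, labelled Atg5 KO). The amino acid enzymes run from 2.90 to 4.55 with their highest bar where the tumour cell markers are highest, at 7.29, and the ER chaperones stay between 6.50 and 6.82.

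The factors of ER-associated degradation, which withdraws misfolded proteins to the cytosol for the proteasome, showed small differences of 1 sign. Herpud1, a membrane scaffold of the degradation complex, had an FPKM of 66.8, 54.7 and 74.4 in the WT-labelled libraries and 51.4, 62.8 and 50.5 in the KO-labelled ones. The groups overlapped through WT-labelled library 2 and KO-labelled library 2, and the log2 difference was -0.24 (SE 0.15, limma-trend adjusted p = 0.534). Without the former library it was -0.36 with an SE of 0.13, and the groups did not overlap (limma-trend adjusted p = 0.593). Syvn1, the ubiquitin ligase HRD1, had 16.9, 19.7 and 14.2 against 15.3, 13.9 and 13.5. Its span overlaps Mrpl49 on the opposite strand, at an FPKM between 12.5 and 19.4, near its own level, and its value is uncertain for that reason. Sel1l, its partner, had 23.6, 24.3 and 24.2 against 22.2, 21.2 and 24.0. Edem1, which selects misfolded glycoproteins, ranged from 23.6 to 42.6 within the Atg5 WT label alone and had a log2 difference of -0.02 (SE 0.22), which took the other sign under median-ratio scaling and quantile normalization. The limma-trend adjusted p of the 4 genes lay between 0.531 and 0.976.

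**Figure D5:**
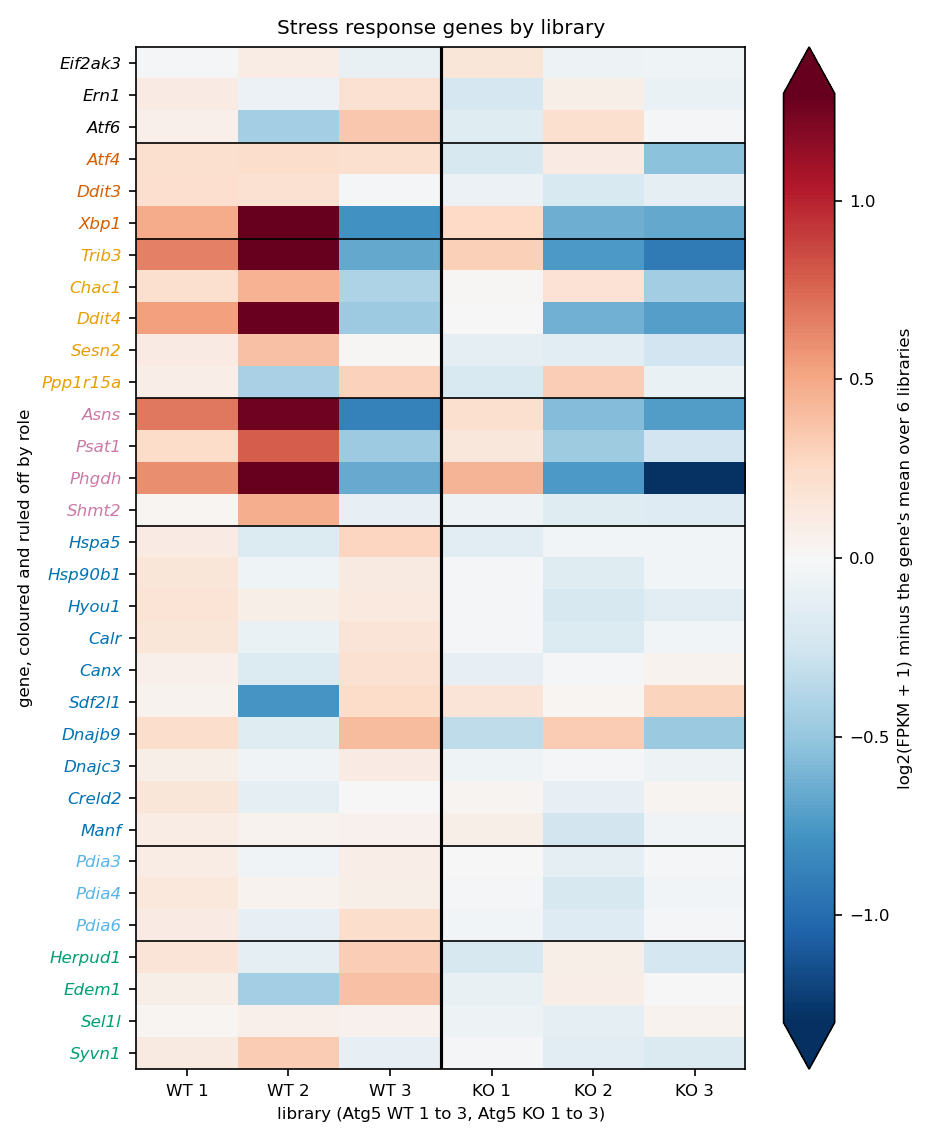
Each row is a member and each column a library, labelled Atg5 WT 1 to 3 and Atg5 KO 1 to 3; colour gives log2(FPKM + 1) less the gene's mean over the 6 libraries, and it saturates at both ends of the scale. The rows with the strongest colours are Xbp1, Trib3, Ddit4, Asns and Phgdh, red in Atg5 WT library 2 and blue in Atg5 WT library 3 and Atg5 KO libraries 2 and 3, and the chaperone and isomerase rows are mostly pale except Sdf2l1 and Dnajb9.

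KO-labelled library 2 was placed among the libraries of its label in the members much as in all genes. It was the highest library of its group in 8 of the 31 members tested, a share of 25.8% beside 24.6% of all genes tested, and the lowest in 13, or 41.9% beside 42%. The 8 were Ern1, Atf6, Atf4, Ppp1r15a, Dnajb9, Dnajc3, Herpud1 and Edem1. Dnajb9, whose protein holds IRE1α inactive, stood at 33.1, 53.0 and 29.7 in the KO-labelled libraries and at 49.3, 37.4 and 55.9 in the WT-labelled ones. Without KO-labelled library 2 the log2 difference of Dnajb9 was -0.57 (SE 0.20, limma-trend adjusted p = 0.512) and that of Atf4 was -0.59 (SE 0.14, adjusted p = 0.406). The 12 immediate early and cell isolation genes, which respond within minutes to handling of cells, had a mean log2(FPKM + 1) of 8.02, 8.23 and 7.84 in the KO-labelled libraries and 8.29, 8.28 and 8.16 in the WT-labelled ones. Their part in the stress gene values was not tested.

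Promoter sequences were read for 29 of the 32 members from RefSeq (GRCm38.p6), each window covering 250 bases before to 50 bases after a start site; Atf6, Hyou1 and Manf had no entry. The ER stress response element (ERSE), which ATF6 and XBP1 bind together with NF-Y, was searched on both strands as CCAAT, 9 bases of any kind and CCACG. It was found in 8 of the 29 members, against 0.137% of the 27025 genes in the promoter table. Over windows the shares were 26.7% of 30 and 0.119% of 32851. The members were chosen by name for a response that ATF6 and XBP1 drive, so the higher share is a description and no test. The elements are shown because their carriers include Calr and Hspa5, the most abundant members, and each is written from CCAAT to CCACG, with those fixed ends in capitals:
Hspa5, chr2:34772025-34772043: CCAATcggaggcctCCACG
Hsp90b1, chr10:86705638-86705656: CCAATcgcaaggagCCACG
Hsp90b1, chr10:86705533-86705551: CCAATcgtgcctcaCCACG
Calr, chr8:84847075-84847093: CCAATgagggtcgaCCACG
Canx, chr11:50325800-50325818: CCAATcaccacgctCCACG
Dnajc3, chr14:118937827-118937845: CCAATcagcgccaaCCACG
Creld2, chr15:88819520-88819538: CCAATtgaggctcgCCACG
Pdia6, chr12:17266491-17266509: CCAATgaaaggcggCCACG
Syvn1, chr19:6046532-6046550: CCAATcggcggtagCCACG
All 8 carriers had a lower mean in the KO-labelled libraries, with log2 differences between -0.23 for Syvn1 and -0.02 for Creld2, a median of -0.14 and no groups without overlap. Canx and Creld2 were the carriers whose sign turned under median-ratio scaling.

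Other motifs were searched in the same windows and on both strands. The C/EBP-ATF response element (CARE), which ATF4 binds, was searched as TGATGNAA and was found in 4 of 29 members, Asns, Chac1, Herpud1 and Trib3, and in 4.51% of all genes. ERSE-II, searched as ATTGG, 1 base of any kind and CCACG, was found in 1 member, Herpud1, and in 0.0444% of all genes. The core bound by XBP1 and ATF6, searched as TGACGTGG or TGACGTGA, was found in 1 member, Hspa5, and in 1.22% of all genes. The windows of Asns and Trib3, among the members whose levels differed most between libraries of one label, are printed beside those of Hspa5 and Herpud1, whose levels differed less, on the strand of the gene with matched motif letters in capitals:
Hspa5, chr2:34771840-34772139, + strand: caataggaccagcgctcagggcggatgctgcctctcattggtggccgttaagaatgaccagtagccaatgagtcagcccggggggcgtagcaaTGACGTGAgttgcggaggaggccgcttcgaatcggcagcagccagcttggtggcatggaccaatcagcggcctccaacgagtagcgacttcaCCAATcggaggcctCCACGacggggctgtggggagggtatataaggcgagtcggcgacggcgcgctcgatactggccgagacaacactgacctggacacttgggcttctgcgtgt
Herpud1, chr8:94386179-94386478, + strand: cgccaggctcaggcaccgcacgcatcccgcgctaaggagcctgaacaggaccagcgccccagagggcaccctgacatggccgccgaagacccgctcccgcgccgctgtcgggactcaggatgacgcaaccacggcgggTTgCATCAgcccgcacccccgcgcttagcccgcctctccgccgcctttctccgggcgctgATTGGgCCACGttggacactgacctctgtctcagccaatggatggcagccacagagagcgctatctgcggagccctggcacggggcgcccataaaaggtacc
Asns, chr6:7693160-7693459, - strand: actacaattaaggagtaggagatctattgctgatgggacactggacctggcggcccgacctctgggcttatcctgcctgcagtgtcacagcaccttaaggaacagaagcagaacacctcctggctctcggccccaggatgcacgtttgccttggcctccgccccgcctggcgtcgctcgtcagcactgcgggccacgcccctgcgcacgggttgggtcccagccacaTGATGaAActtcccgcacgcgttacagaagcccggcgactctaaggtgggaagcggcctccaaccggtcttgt
Trib3, chr2:152344011-152344310, - strand: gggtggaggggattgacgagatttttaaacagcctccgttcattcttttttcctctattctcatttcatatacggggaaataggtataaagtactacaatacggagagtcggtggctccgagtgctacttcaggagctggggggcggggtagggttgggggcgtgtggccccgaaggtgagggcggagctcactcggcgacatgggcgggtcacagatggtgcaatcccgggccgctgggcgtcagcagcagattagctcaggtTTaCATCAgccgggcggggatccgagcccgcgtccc
The Hspa5 window has the core element and the ERSE, the Herpud1 window a CARE on the opposite strand and the ERSE-II, and the Asns and Trib3 windows 1 CARE each, that of Trib3 on the opposite strand. Between WT-labelled libraries 2 and 3 the log2 difference was 2.14 for Asns and 2.03 for Trib3, and -0.45 for Hspa5 and -0.44 for Herpud1. It was 2.30 for Phgdh, 2.13 for Xbp1 and 1.75 for Ddit4, whose windows held none of the motifs searched. Herpud1 also has a CARE, so the CARE did not go with this difference throughout. The windows of Atf4, Ddit3, Sesn2 and Pdia4, all without overlap between the groups, held none of these letters. The same was true of 17 of the 29 members with a window, these genes included. Hyou1, also without overlap, had no window. A match of letters is a description and shows no binding.

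No gene of the same pathways outside the 32 members passed the test. Over all genes, limma-trend called 0 of 12 other eIF2 kinases and factors, 0 of 32 other ATF4 and CHOP targets tested and 0 of 21 other ER folding factors tested, in either direction. It also called 0 of 19 other degradation factors, 0 of 14 translocon genes, 0 of 9 other sensors and their proteases, 0 of 7 one-carbon and proline enzymes and 0 of 5 ER-phagy receptors. Of the other ATF4 and CHOP targets 26 had a lower and 6 a higher mean in the KO-labelled libraries, with a median log2 difference of -0.27. Of these 32 targets, 3 did not overlap on the lower side and 2 on the higher side, beside 9.41% and 9.2% of all genes. Of the other degradation factors 9 were lower and 10 higher, with a median of 0.04. Over all genes tested 62.8% had the lower mean there, and the median was -0.09. Ero1l, the oxidase that recharges disulfide isomerases, was the target of smallest p on the lower side, with an FPKM of 20.2 ± 2.91 against 12.4 ± 1.60 (limma-trend adjusted p = 0.492). Cebpb, a transcription factor partner of CHOP, stood at 267 ± 12.8 against 203 ± 27.5 and did not overlap (adjusted p = 0.492). On the higher side Wars, the cytosolic tryptophanyl-tRNA synthetase, had 18.7 ± 0.131 against 25.1 ± 3.94, and Cebpg, a C/EBP family partner of ATF4, had 17.3 ± 0.225 against 20.9 ± 1.32, both without overlap (limma-trend adjusted p = 0.492 for each).

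Eif2ak1 and Rtcb had higher means in the KO-labelled libraries, and neither passed. Eif2ak1, the heme-regulated eIF2α kinase HRI, had an FPKM of 9.04 ± 1.15 against 12.8 ± 1.39, and the groups did not overlap (limma-trend adjusted p = 0.492). Rtcb, the RNA ligase that joins the spliced Xbp1 exons, had 71.7 ± 7.45 against 101 ± 15.6, again without overlap (adjusted p = 0.492). P4hb, the most studied disulfide isomerase, went with Pdia4, at 299.7 ± 16.5 against 244 ± 9.39 (limma-trend adjusted p = 0.492), without overlap. Chaperones of other compartments split: the mitochondrial list had 7 of 8 means lower, with a median log2 difference of -0.19, and the cytosolic heat shock list 6 of 11, with a median of -0.06. Among all genes tested 62.8% of means were lower. None of either list passed.

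Markers of another secretory cell type mostly had lower means in the KO-labelled libraries too. Plasma cells carry a large ER and high levels of many of these genes. Of 16 plasma and B cell markers 14 were tested. The lower mean was in the KO-labelled libraries for 12 of these, beside 62.8% of all genes tested. None of the 16 was at 0 in every library. Their summed FPKM, which includes the constant region genes Igkc and Ighg1, was 525, 103 and 842 in the WT-labelled libraries and 217, 119 and 132 in the KO-labelled ones (exact two-sided permutation p = 0.2 for their mean log2 level). Igkc stood at 270.2, 19.9 and 468 against 74.6, 7.76 and 5.60. Hspa5, Herpud1, Edem1 and Dnajb9 had the same order of libraries within the Atg5 WT label, lowest in library 2 and highest in library 3, as these markers and the macrophage markers did. So did Ern1, Atf6, Ppp1r15a, Calr, Canx, Sdf2l1, Dnajc3 and Pdia6. WT-labelled library 3 was the highest of its group in 12 of the 31 members tested, or 38.7%, beside 29.8% of all genes tested. Among the KO-labelled libraries the orders differed: the summed plasma and B cell markers were highest in library 1, where Hspa5 and Edem1 were lowest, and Herpud1 and Dnajb9 were highest in library 2. Their part in the stress gene values was not tested.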

How the data were processed

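RNA sequencing was done on sorted tumour macrophages of 6 mice, 3 in each of 2 groups, which were taken from the labels' descriptions. The deposited table holds FPKM per gene made by the authors; per the submitters' processing notes STAR, CASAVA and mm10 were used, and the counter and its strand setting are not stated there. FPKM times gene length gave whole reads (within 0.01) in every library, and their totals are the depth. limma 3.58.1 in R 4.3.3 was run as limma-trend on log2(FPKM + 1) over genes whose mean FPKM was 1 or more, threshold 0.05 after Benjamini-Hochberg adjustment. It was checked on simulated reads with a fixed dispersion and no differences in cell mixture. That check does not cover the spread between the libraries used here. p-values measure the spread between these mice. The log2 scale with a pseudocount understates differences of low genes. limma-voom on the recovered reads, other pseudocounts, filters and scalings, a replicate block, a tumour-cell score covariate and leaving out each library were the alternatives.

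The members and lists were chosen with earlier results of these data known. Per-library values were given by rule for the sensors, the transcription factors, Hspa5 and members whose groups did not overlap or whose unadjusted p was under 0.05, and for further members chosen after their values were seen. From each wider list at most the 2 genes of smallest p per direction were eligible to be named, and from a marker list its 2 most abundant genes. Groups that do not overlap have every value of one below every value of the other.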

Additional observations from a re-analysis of the deposited data

How the results depend on the processing

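No alternative put a member past the threshold of 0.05. Over all genes, where limma-trend called 1, the count was 0 without the filter, with median-ratio scaling and with the replicate block, and it ran from 0 to 18 when single libraries were left out, the 18 being without WT-labelled library 2. The members at an unadjusted p under 0.05 numbered 1 with median-ratio scaling, 1 with quantile normalization, 1 with the tumour-cell covariate and 0 with the replicate block, beside 4.74%, 4.22%, 4.62% and 6.12% of all genes on the lower side. They ran from 0 to 9 with single libraries left out, the 9 beside 23% of all genes. Members without overlap of the groups numbered 9 with quantile normalization (7.6% of all genes on the lower side), 5 with median-ratio scaling, of which Eif2ak3 was higher, and from 6 to 14 with single libraries left out. Leaving out a library can only keep or raise that count. With the tumour-cell covariate the log2 difference of Atf6 was -0.25 and that of Xbp1 0.17. Without WT-labelled library 2 and KO-labelled library 2 that of Atf6 was -0.20 and -0.08, and without WT-labelled library 3 and KO-labelled library 1 that of Eif2ak3 was -0.024 and -0.054; over all single libraries left out, Atf6 ran from -0.20 to 0.19 and Eif2ak3 from -0.054 to 0.070. The cause of these changes was not tested. Of 150 combinations of the 10 members named by rule and 15 alternatives, 144 kept their direction. The other filters and the replicate block leave each log2 difference as it was, so those combinations could not change direction. Same-numbered libraries had deviations from the group means that correlated at 0.21, -0.38 and 0.59, so the numbers were not taken as pairing, and WT-labelled library 2 correlated best with KO-labelled library 1 (0.73). With 3 libraries in each group, small differences are not detectable.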
